A study of Mus musculus with 2 samples.

Results

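Actins are the proteins that polymerize into the thin filaments of muscle and into the cytoskeleton of every cell. The 6 genes considered here encode the skeletal muscle isoform (Acta1), the cardiac isoform (Actc1), the smooth muscle isoforms alpha (Acta2) and gamma (Actg2), and the cytoplasmic isoforms beta (Actb) and gamma (Actg1). A gene entered through a probe set that the platform's annotation pairs with that gene alone. This gave 5 of the 6 genes with 1 probe set each, 5 of the 35557 probe sets on the array. Actg1 had none of its own and appeared only on 4 probe sets paired with Actg1 and Actb together. Ear tissue of BALB/c mouse fetuses taken at E18.5 was compared between the wild type and a double knockout null for Myf5 and Myod1 (Myf5-/-:MyoD-/-), with 1 array per genotype. The labels state neither the alleles, nor how many fetuses gave the RNA, nor the part of the ear taken. With 1 array per genotype, no difference below has a replicate check or a p-value.

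The muscle actins are switched on as myoblasts differentiate, a step that Myf5 and Myod1, the transcription factors that commit cells to the skeletal muscle lineage, set in motion. Fetal skeletal muscle makes both Acta1 and Actc1, although Actc1 is best known as the actin of the heart. Acta2 is the usual marker of vascular smooth muscle, and it is also made by myofibroblasts and transiently by embryonic striated muscle. Actg2 is the actin of visceral smooth muscle, and Actb and Actg1 are made in almost all cells. Serum response factor (Srf), which binds the CArG box, and its cofactors of the myocardin family (Myocd, Mrtfa, Mrtfb) drive many actin genes.

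Among the 5 measured actins, the difference between the genotypes was largest for the sarcomeric isoforms, smaller for the smooth muscle isoforms and smallest for Actb. The sarcomeric actins Actc1 and Acta1 were 93.2-fold and 88.3-fold lower in the double knockout on the deposited scale, where their remaining signal lay at the array median, or 49.4-fold and 45.1-fold with the array median added as a pseudocount. The smooth muscle actin Acta2 was 2.02-fold lower, Actg2 was 1.36-fold lower, and Actb differed by 0.08 on the log2 scale. At a threshold of 2-fold, after raising values below a floor to it, 3 of the 5 measured actins were lower, 0 were higher and 2 were within it, with Acta2 lying on the threshold itself. Over the 12458 genes that passed this floor on 1 array or both, 1.71% were at least 2-fold lower and 0.482% at least 2-fold higher. The floor was the median of each array over all probe sets, 5.65 in wild-type and 5.70 in double-knockout ear. All 5 actins lay above it on both arrays.

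**Figure D1:**
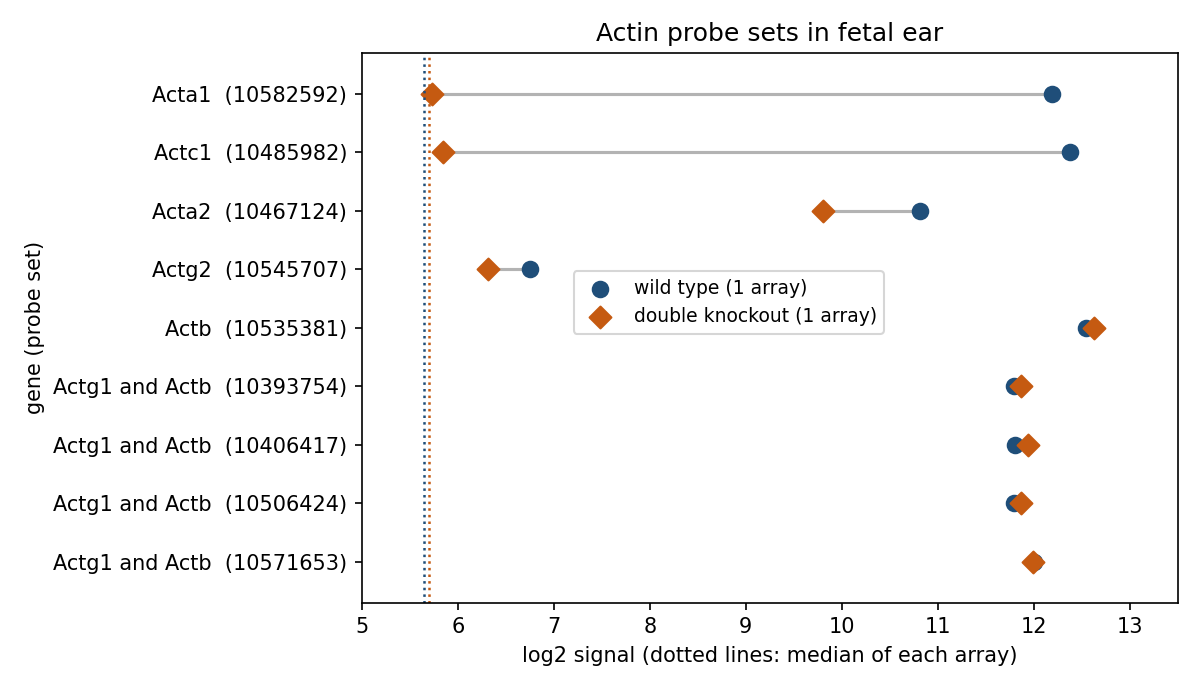
Log2 signal of each actin probe set on the wild-type array (circles) and the double knockout array (diamonds), with the median of each array as a dotted line; each point is 1 array and there are no error bars. The Acta1 and Actc1 signals of the double knockout lie next to the medians, and those of Actb and of the 4 shared probe sets nearly coincide between genotypes.

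Acta1, the main actin of adult skeletal muscle fibres, read 12.19 in wild-type and 5.73 in double-knockout ear (log2 signal, probe set 10582592). Actc1 read 12.38 and 5.84 (probe set 10485982). Both probe sets gave strong signal in the wild-type ear and signal close to the array median in the double knockout, 0.03 above it for Acta1 and 0.14 above it for Actc1. Between probe sets of 1 gene, the log2 difference of the genotypes had a standard deviation of 0.17 (619 genes with several), which leaves out the animals. It is a spread of differences and not of signals, so it does not measure these margins. On the linear scale the signal left in the double knockout was at most 1.13% of the wild type for Acta1 and 1.07% for Actc1, upper limits because signal at the array median cannot be told from background. The log2 differences of -6.46 and -6.54 are therefore not ordered here. With the floor at the 75th percentile of each array only bounds were left, at least 28.8-fold lower for Acta1 and at least 32.8-fold lower for Actc1.

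Actc1 and Acta1 were the lowest pair by difference among the 11626 genes that passed the floor on each array. Among these genes, which leave out those under the floor in the double knockout, the nearest to the pair by difference were Tnnt3 and Myl1. Tnnt3, the fast skeletal troponin T, was at -5.79, and Myl1, a myosin light chain of fast fibres, at -5.60. When no floor was set, 3 genes ranked below both actins, among them Myh3 and Myh8, the embryonic and perinatal myosin heavy chains, which lay below the floor in the double knockout. Myh3 at -6.85, Myh8 at -6.66 and the skeletal muscle marker Atp2a1 at -6.07 were then nearer to both actins than Tnnt3.

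**Figure D2:**
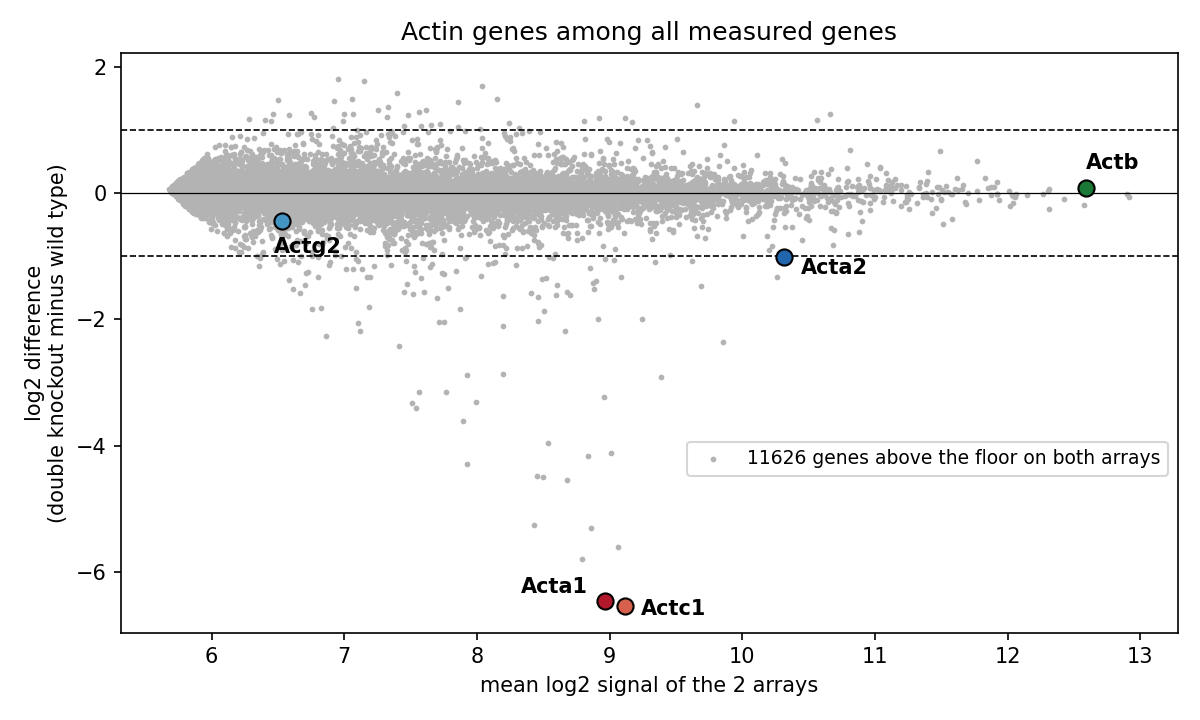
Log2 difference (double knockout minus wild type) against the mean log2 signal of the 2 arrays for 11626 genes above the floor on both arrays (grey), with the 5 measured actins named; dashed lines mark 2-fold. Actc1 and Acta1 lie lowest of all points, Acta2 lies on the lower 2-fold line and Actb near 0.

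Skeletal muscle markers moved with the sarcomeric actins. Of 10 markers, 9 were at least 2-fold lower and 0 higher, with a median difference of -4.59, and 3 of the 10 lay above the floor in the double knockout against 10 in the wild type. Their summed signal, taken without the floor, went from 13.76 to 8.85 in log2 units, the latter including values below the floor. The exception, Mb, which encodes the oxygen carrier myoglobin, read 7.70 and 6.92. In whole tissue, fewer muscle cells and less actin RNA per cell cannot be told apart. Heart muscle was checked because Actc1 is its actin. Of 10 heart markers, Nppa, Nppb, Myh6, Myl7 and Tnni3 lay below the floor on both arrays, between 4.45 and 5.64. Of the 5 other heart markers, Myh7, Myl2 and Myl3, which slow skeletal fibres also make, were at least 7.27-fold, at least 2.67-fold and at least 2.68-fold lower. Ryr2 read 5.65 and 5.59, at the floor, and Nkx2-5 read 5.70 and 6.25, above the floor on both arrays. The summed signal of the 10 heart markers, also taken without the floor, was 9.84 and 8.52 in log2 units.

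Promoters were examined because the sarcomeric actins differed together, and those of the 4 actin genes found in the RefSeq promoter table are printed below, 250 bases before to 50 bases after the transcript start in GRCm38.p6, all on the minus strand. They span chr8:123894726-123895025 (Acta1), chr2:114052826-114053125 (Actc1), chr19:34255324-34255623 (Acta2) and chr11:120348446-120348745 (Actg1). Capitals mark the CArG box, which is CC, a core of 6 A or T bases and GG, and CArG-like stretches with 1 G or C in that core.
Acta1: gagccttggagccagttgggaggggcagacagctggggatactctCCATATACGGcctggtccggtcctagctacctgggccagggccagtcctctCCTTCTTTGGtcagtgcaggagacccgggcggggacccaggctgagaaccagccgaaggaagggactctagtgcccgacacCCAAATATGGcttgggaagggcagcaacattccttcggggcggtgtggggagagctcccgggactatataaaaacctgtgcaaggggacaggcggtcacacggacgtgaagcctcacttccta
Actc1: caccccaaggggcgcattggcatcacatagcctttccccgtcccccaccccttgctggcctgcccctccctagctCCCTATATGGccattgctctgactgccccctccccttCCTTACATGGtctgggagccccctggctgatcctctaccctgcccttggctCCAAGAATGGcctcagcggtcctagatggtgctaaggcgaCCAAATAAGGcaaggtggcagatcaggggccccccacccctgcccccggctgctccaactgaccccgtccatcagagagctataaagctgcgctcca
Acta2: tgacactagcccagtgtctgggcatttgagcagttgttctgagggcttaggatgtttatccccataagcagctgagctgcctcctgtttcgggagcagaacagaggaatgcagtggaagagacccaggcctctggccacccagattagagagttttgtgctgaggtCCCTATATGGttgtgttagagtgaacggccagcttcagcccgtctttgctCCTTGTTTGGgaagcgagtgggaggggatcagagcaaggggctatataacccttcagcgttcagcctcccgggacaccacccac
Actg1: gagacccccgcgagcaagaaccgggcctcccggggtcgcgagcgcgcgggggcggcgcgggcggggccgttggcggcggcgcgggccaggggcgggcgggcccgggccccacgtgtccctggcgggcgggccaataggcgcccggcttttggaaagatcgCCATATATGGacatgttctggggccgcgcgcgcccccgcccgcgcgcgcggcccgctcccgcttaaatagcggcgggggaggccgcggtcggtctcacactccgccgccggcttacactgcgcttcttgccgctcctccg

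Exact CArG boxes were found in 3 of the 4 windows, 73 to 64 bases before the start in Acta1, 47 to 38 in Actc1 and 90 to 81 in Actg1. Of all 32851 promoter windows of this length in the table, 1.63% held one. Acta1 had 2 further CArG-like stretches, Actc1 had 3 and Acta2 had 2, against 8.50% of all windows with at least 1. The Acta2 stretches lay 84 to 75 and 34 to 25 bases before the start. Exact or CArG-like matches occurred in all 4 windows and in 9.98% of all windows. Actb and Actg2 had no window in the table, and Actg1, the only cytoplasmic actin with one, has no expression value of its own. The E-box CANNTG, the motif bound by Myod1, Myf5 and other basic helix-loop-helix factors, had 2 matches in Acta1, 1 in Actc1, 3 in Acta2 and 1 in Actg1, and 72.3% of all windows held at least 1. The MCAT motif CATTCC, bound by Tead factors, occurred once each in Acta1 and Acta2 and in 14.7% of all windows. TATAAA was found in 13.6% of all windows, among them Acta1, 7 to 2 bases before the start, and Actc1, at bases 34 to 39 after it. The starts are RefSeq annotations that were not checked, so all distances here hold only relative to them. Both strands were searched, and the motifs were looked for separately, so that their matches may overlap. A match is a description of these letters and not a binding site.

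**Figure D3:**
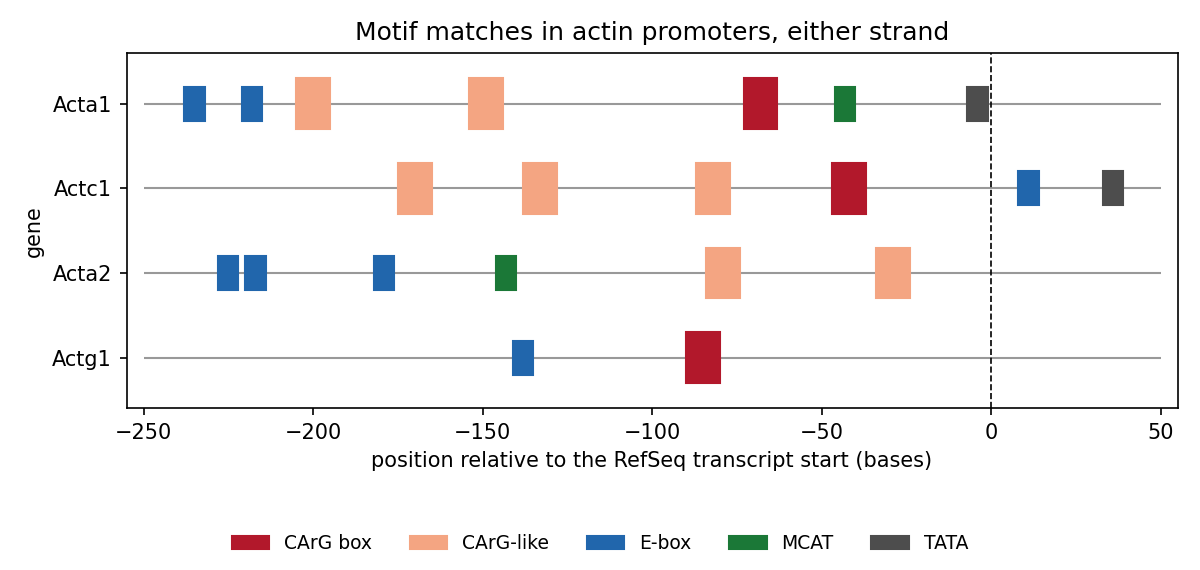
Positions of motif matches on either strand in the promoter windows of Acta1, Actc1, Acta2 and Actg1, in bases relative to the RefSeq transcript start (dashed line); block widths are to scale. CArG or CArG-like matches (tall blocks) appear in all 4 windows, 4 of them in Actc1 and 1 in Actg1.

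Acta2, the alpha actin of smooth muscle, read 10.82 in wild-type and 9.81 in double-knockout ear (probe set 10467124). Both values were far above the floor, and the double knockout kept 49.6% of the wild-type signal. The difference of -1.01 sits on the threshold: with medians of expressed probe sets made equal it was -0.99, or 1.99-fold, and with a pseudocount -0.97, or 1.96-fold, so it is not past 2-fold under these. Acta2 ranked 209 from the lowest of the 12458 genes that passed the floor on 1 array or both. Among the 11626 genes measured on both arrays, which leave out those under the floor in the double knockout, 0.946% had a lower difference. The 3 genes with the nearest difference were Meox2, a homeobox factor of limb muscle and vessels, Kcnc4, a potassium channel, and Fgfrl1, a receptor-like protein of the fibroblast growth factor family. They were 2.02-fold, 2.01-fold and 2.01-fold lower.

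Actg2, the gamma actin of smooth muscle, read 6.76 and 6.31 (probe set 10545707), so it was measured 1.11 above the floor in the wild type and 0.61 above it in the double knockout. Its difference was -0.45, and 4.68% of genes measured on both arrays had a lower one. Actg2 ranked 704 from the lowest of the 12458 genes that passed the floor on 1 array or both. With a pseudocount the difference was -0.27. At the 75th percentile floor the gene was below it on both arrays.

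The other smooth muscle genes were closer to 0 than Acta2. Of 11 smooth muscle markers 10 entered, with signal above the floor on 1 array or both. Of these 10, 0 were past 2-fold in either direction, 8 were below 0 and the median was -0.29. Of all 12458 genes, 1.71% were at least 2-fold lower, 0.482% at least 2-fold higher and 6332 were below 0. With values raised to the floor, 0 of the 10 had a difference as low as that of Acta2, whereas 2 were lower than Actg2. Named after their values were seen, Tagln, the smooth muscle protein transgelin, differed by -0.60, Cnn1, calponin, by -0.39, Myh11, the smooth muscle myosin heavy chain, by -0.37, and Mylk, the kinase of the myosin light chain, by 0.25. Synpo2, an actin-bundling protein that striated muscle also makes, read 6.47 in the wild type and lay below the floor in the double knockout, at least 1.71-fold lower; without a floor its difference was -1.08, below that of Acta2. The summed signal of the smooth muscle markers was 10.56 in wild-type and 10.33 in double-knockout ear, and that of 7 pericyte markers 10.95 and 10.82 (log2). Of the 6 pericyte markers above the floor, 5 were below 0 with a median of -0.27, and 0 lay below Acta2. Of the 8 fibroblast markers 7 were below 0, with a median of -0.17. Of the 6 endothelial markers 4 were below 0, with a median of -0.10 and a summed signal of 11.79 and 11.80. The part that skeletal muscle, smooth muscle, pericytes or fibroblasts have in the Acta2 difference was not tested.

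Actb, the beta cytoplasmic actin often used as a reference gene, read 12.55 in wild-type and 12.63 in double-knockout ear (probe set 10535381), a difference of 0.08. Under the other 4 scalings the difference ranged from 0.06 to 0.15. The 4 probe sets paired with both Actg1 and Actb read 11.79 to 12.01 in wild-type and 11.87 to 11.99 in double-knockout ear, with differences from -0.02 to 0.13. All of these differences lay within 0.17, the standard deviation of the difference between probe sets of 1 gene. That spread leaves out the animals and sets no limit of detection between the genotypes. With 1 array per genotype, the size of difference in cytoplasmic actin that could be detected is not known. The shared probe sets do not separate Actg1 from Actb, and Actg1 has no value of its own. The coding sequences of the actin genes are very similar, and the probe sequences were not used here. The strong Actb signal of 12.63 in the double knockout was accompanied by 5.73 for Acta1 and 5.84 for Actc1 on the same array.

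Srf, Mrtfa and Mrtfb were within 2-fold. Srf read 8.58 and 7.76, 1.77-fold lower. Its cofactor Mrtfa read 7.88 and 7.68, and Mrtfb read 8.59 and 8.08 on the probe set of highest signal, where its 2 other probe sets differed by 0.02 and 0.10. Myocd, the cofactor of smooth and heart muscle, was below the floor on both arrays, at 5.15 and 4.97. A wider list held Srf, its cofactors, Tead factors and Srf target genes of the cytoskeleton. Of its 25 genes, 22 entered; 2 of these lay at least 2-fold lower, 0 at least 2-fold higher and 20 within 2-fold. One of the 20, Abra, an actin-binding activator of Srf signalling in striated muscle, has only a bound: it read 6.19 in wild-type ear and 4.09, under the floor, in the other, at least 1.40-fold lower, and its difference without a floor was -2.10. Of the 22, 19 were below 0, with a median of -0.51 where all 12458 genes had -0.01. The 2 lower genes were Fhl1, a LIM protein abundant in skeletal muscle, at 11.03 and 8.68, 5.10-fold lower, and Vgll2, a Tead cofactor of skeletal muscle, at 7.44 and 5.33, at least 3.35-fold lower. The highest difference was that of Tead2, at 0.12.

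Proteins of the striated thin filament and its anchors were lower along with the sarcomeric actins. Of 28 such genes 26 entered; 22 of these lay at least 2-fold lower, 0 at least 2-fold higher and 4 within 2-fold on the probe set of highest signal. Of these 4, Klhl40, a Kelch protein that stabilizes thin filaments, has only a bound: its difference was -0.36 with the floor and -1.05 without. Tpm3, a tropomyosin, differed by 0.05 on that probe set, but another of its probe sets read 9.10 and 7.50, a difference of -1.60. Its remaining probe sets differed by -0.08 and 0.08. The median of the 26 genes was -2.80 with low values raised to the floor. In the double knockout 12 genes of the list lay above the floor, against 26 in the wild type. No member was as low as Acta1 or Actc1 on this scale. The lowest were Tnnt3, 55.2-fold lower, Actn2, the alpha-actinin that anchors thin filaments at the Z-disc, at least 43.8-fold lower, Tnni2, the fast troponin I, 38.1-fold lower, and Tnnc2, the fast troponin C, at least 27.1-fold lower. The highest was Nebl, which encodes nebulette, at 0.19. These members were chosen for their place in muscle, and many also appear among the skeletal muscle genes already known to differ in these data.

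**Figure D4:**
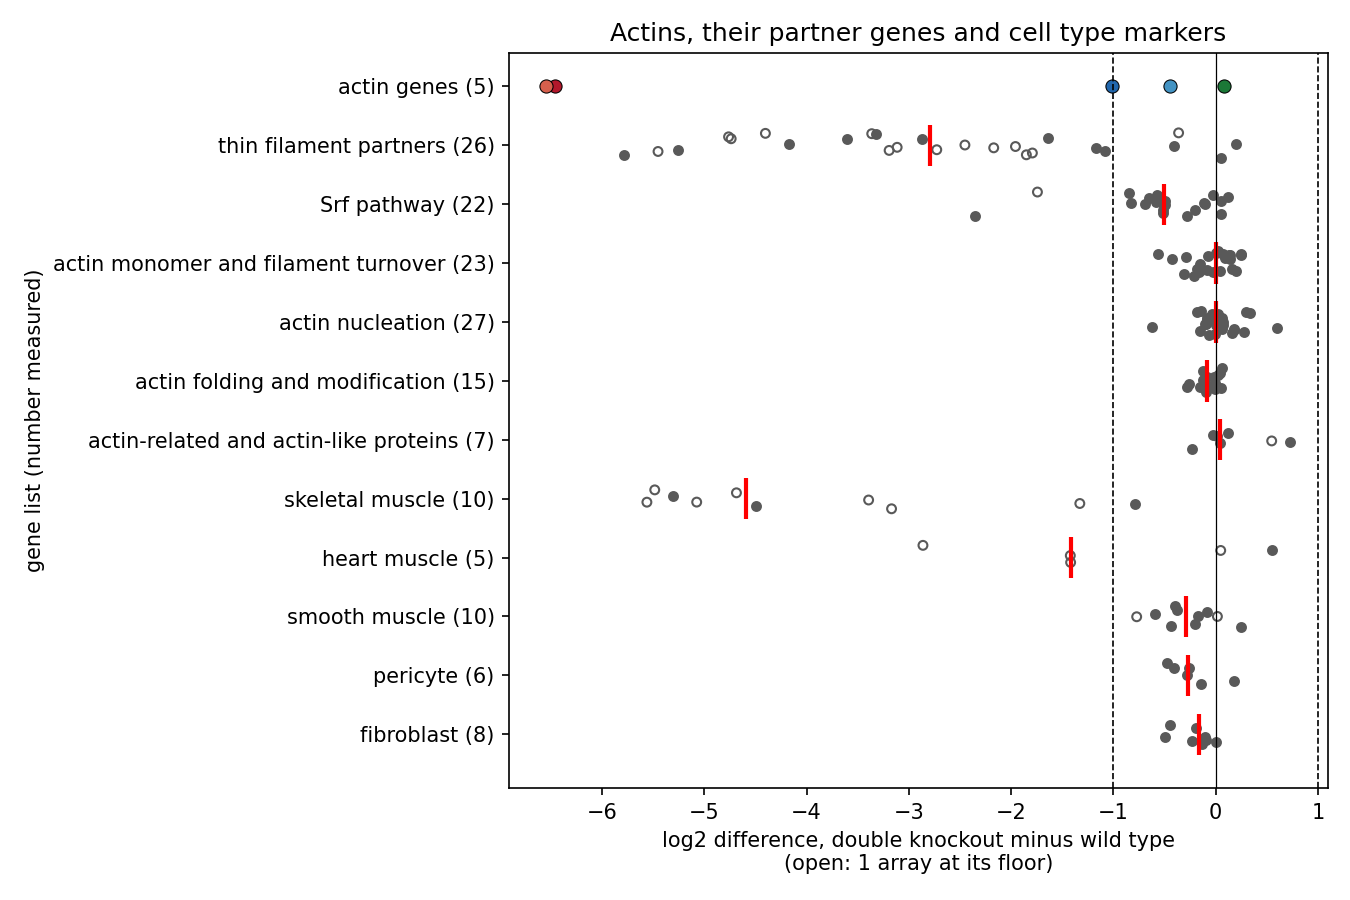
Log2 difference (double knockout minus wild type) of each gene above the floor on at least 1 array, for the actins (coloured, in the order Actc1, Acta1, Acta2, Actg2 and Actb from left to right) and for gene lists; open points have 1 array at its floor and are bounds, red bars are list medians and dashed lines mark 2-fold. The thin filament partners have a median of -2.80, and the lists of general actin turnover and nucleation have medians of 0.00 and 0.01.

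Lists of actin turnover, nucleation, folding and actin-related proteins held 0 genes past 2-fold, with members on both sides of 0. Of 23 genes of monomer binding and filament turnover above the floor, 23 were within 2-fold and the median was 0.00. Twf2, a twinfilin that caps filaments and binds monomers, was lowest at -0.57, and its paralogue Twf1 was highest at 0.25. The 27 nucleation genes above the floor, among them the Arp2/3 subunits and the formins, were also within 2-fold, with a median of 0.01. Cobl, an actin nucleator, differed by -0.62, and Wasf1, a WAVE protein prominent in neurons, by 0.60. The 15 genes of actin folding and modification had a median of -0.08, with Vbp1, a prefoldin subunit, at -0.28 and Pfdn5 at 0.07. Of 15 actin-related and actin-like genes on the array, 8 were below the floor on both arrays. The other 7 were within 2-fold after flooring, from -0.23 for Actr8, a chromatin remodelling subunit, to 0.73 for Actl6b, the actin-related subunit of neuronal chromatin remodelling complexes, which read 6.83 and 7.56.

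The labelled tissue was checked by its markers. Of 12 inner ear markers 9 were above the floor, with 9 within 2-fold and a median of 0.00. Of all 12458 genes, 12185 were within 2-fold. Salivary gland markers were at least 2-fold higher in the double knockout for 7 of 8 genes, cortical neuron markers for 4 of 5 and brown fat markers for 2 of 5. Of the 8 salivary markers, 1 lay above the floor in wild-type and 8 in double-knockout ear. Their summed log2 signal, taken without the floor, was 7.70 and 13.40, so the wild-type sum includes values below the floor. The arrays thus differed in more than muscle, and the part of this in the actin differences was not tested. Of the targeted genes, Myod1 read 6.95 and 6.38 and Myf5 5.94 and 5.25. The sources used here do not say whether their probe sets lie in deleted sequence, so these values check no label.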

How the data were processed

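Total RNA of ear tissue was hybridized to Affymetrix arrays, 1 per genotype, after labelling of 6 µg of RNA per the labels' protocols. The deposited values are log2 signals per probe set. The log2 base was read from their range (0.75 to 13.27). MAS5 is named, without a version, per the submitters' processing notes; background correction, normalization and genome build: not given in the sources used here. Medians were 5.65 and 5.70 and the scale was kept as deposited. Platform annotation, which can be old, paired 21789 probe sets with 1 gene, 1621 with several and 12147 with none. Of the former, 21698 were found by Entrez identifier in a RefSeq gene table of GRCm38.p6, with 0 symbols updated.

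For each of 19938 genes the probe set of highest mean linear signal was kept. Values below each array's 50th percentile were raised to it, and a fold against such a floor is written "at least". Differences are log2 double knockout minus log2 wild type, counted at 2-fold. Summed signals of a list hold all its genes on the array and were taken without the floor. There is no test across samples, and precision is limited by the number of arrays. Alternatives were 4 scalings (equal medians, quantile, lowess, equal trimmed means without muscle genes), a lower floor (25th percentile), a higher one (75th) or none, each array's median signal added as a pseudocount, a gene's median probe set, and 1.5-fold or 3-fold as the threshold. The calculation was tested on simulated data (Python 3.11.15, numpy 2.4.6, pandas 2.3.3, statsmodels 0.14.6).

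The members and lists were chosen with earlier results of these data known. Named were all actin probe sets, Srf, Mrtfa, Mrtfb, Myocd, Myod1, Myf5, in each pathway list up to the 4 largest differences past 2-fold in each direction or the largest where none passed, and the 3 genes nearest in difference to each actin past 2-fold. Other genes were named after their values were seen.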

Additional observations from a re-analysis of the deposited data

How the results depend on the processing

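A value was taken to have moved when it changed by more than 0.17, since no replicates exist. This is the standard deviation of the log2 difference between probe sets of 1 gene. Each measured actin has 1 probe set and lay above the floor on both arrays. The lower floor, no floor and the median probe set therefore had to return the main value. The 75th percentile floor had to do so for Acta2 and Actb, so these settings are no check of them. Under the 4 scalings no actin difference past 2-fold changed sign. Those of Acta2 and Actb did not move under the scalings or the pseudocount. Acta2 was -0.99 with equal medians and -0.97 with the pseudocount, inside 2-fold. With the floor at the 75th percentile Acta1 was at -4.85 and Actc1 at -5.04, which are bounds because the double knockout signal is raised to a higher floor, and Actg2 was below the floor on both arrays and has no value. With the pseudocount, which compresses low signals, Acta1 was at -5.49, Actc1 at -5.63 and Actg2 at -0.27. The 213 lower and 60 higher of 12458 genes, 1.71% and 0.482%, became 111 and 21 of 6372 at that higher floor, 1.74% and 0.330%. Of the 12458 genes, 451 and 280 passed 1.5-fold and 120 and 16 passed 3-fold. Higher genes numbered 92 with no floor and 34 with the pseudocount, 0.461% and 0.171% of 19938 genes. The scalings shifted the median of all genes by at most 0.02. Actg1 has no value under any setting. No paired analysis was possible because each genotype has 1 array. Signals near the floor limit the folds of Acta1, Actc1 and Actg2.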

Other observations

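Several actin-binding proteins come as a pair of muscle and general paralogues, and several were set side by side after their values were seen. Cofilin severs and recycles filaments. Cfl2, its muscle form, read 9.89 in wild-type and 8.80 in double-knockout ear and was 2.12-fold lower there, whereas Cfl1, the general form, differed by 0.09. The cyclase-associated proteins recharge actin monomers. Cap2, the striated muscle form, read 9.63 and 6.77, 7.30-fold lower, and Cap1 differed by 0.04. Among the alpha-actinins, which cross-link filaments, Actn3 of fast fibres read 9.70 and 6.09, 12.2-fold lower, and Actn2 was at least 43.8-fold lower. The general forms Actn1 and Actn4 differed by -0.12 and 0.07. Tropomodulins cap the slow-growing filament end. Tmod4 of skeletal muscle was at least 9.14-fold lower, Tmod1, also of striated muscle, was 3.12-fold lower on 1 probe set and differed by 0.34 on another, and the widely expressed Tmod3 differed by -0.16. Other families were less clear. The striated muscle formin Fhod3 was 1.33-fold lower, with its paralogue Fhod1 at -0.16. Among tropomyosins Tpm2 differed by -4.17, Tpm1 by -1.17 and Tpm4 by -0.11. Tpm3 differed by -1.60 on 1 probe set and by 0.05, -0.08 and 0.08 on its others. The pairs were picked with the values known and are a description of 1 array per genotype.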
